A study of Mus musculus with 24 samples.

Results

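The 39 genes described here encode proteins of autophagy, the process that carries cytoplasm to the lysosome, and of the lysosome itself. They were taken by symbol from a list of regulators; no measured value is part of that rule, although the list was drawn up with earlier results of these data known. All 39 were found in the table of mouse embryonic stem cells (mESC), which held 17501 genes, and in the table of neural progenitor cells (NPC), which held 16024. All 39 also passed the filter on low values in each cell type. RNA sequencing was run on 24 libraries, 12 per cell type, with 2 libraries for each of 6 genotypes. The genotypes were wild type for Htt (WT), knockout of Htt (KO), and 4 knock-in lines, heterozygous for an Htt allele with an inserted CAG repeat and named Q20, Q50, Q92 and Q111 after the repeat number. The sample titles give the third allele 92 repeats and the growth protocol gives it 89. The mESC were grown with leukaemia inhibitory factor on gelatin over a layer of irradiated mouse embryonic fibroblasts, and the NPC were made from mESC in N2B27 medium and expanded with FGF and EGF on laminin. The labels call replicates biological samples and name no clones, so a repeat length and the line that carries it cannot be told apart.

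Autophagy starts when the ULK kinase complex activates a class III phosphoinositide kinase complex. The lipid mark that this kinase makes recruits WIPI proteins, while ATG9 vesicles and ATG2 lipid transfer proteins supply the membrane of the growing sac. A ubiquitin-like conjugation system attaches ATG8 proteins to that membrane, cargo receptors dock on them, and the closed autophagosome fuses with a lysosome whose cathepsins digest the content. TFEB and TFE3 are transcription factors that drive many lysosomal and autophagy genes. Huntingtin, the product of Htt, is known as a scaffold for selective autophagy, and long CAG repeats in it cause Huntington's disease, in which neurons are the cells most affected.

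The recovered reads ran from 58546211 to 81502284 per mESC library and from 48525333 to 118038952 per NPC library. The values are those the authors named CPM, read counts scaled to library size and, as the column totals show, by a further factor. The fewest reads behind any member in any library were 227 in mESC (Atg4c) and 154 in NPC (Atg10). Htt itself was at 124 and 113 CPM in the WT mESC libraries and at 139 and 68.5 in those labelled KO, so the library labelled KO 1 was above both WT libraries and the groups overlapped. In NPC the values were 137 and 177 in WT and 100.1 and 94.9 in KO, which did not overlap (log2 change -0.67, adjusted p = 0.0673). Pluripotency markers summed to between 1992 and 3772 CPM in mESC and neural progenitor markers to between 4007 and 9383 CPM in NPC, so both cell types carried the markers of their labels. The NPC libraries labelled Q20 stood apart: the pluripotency factor Pou5f1 was at 90.1 and 87.4 CPM there, against at most 0.405 CPM in the other NPC libraries. In mESC, libraries of the same replicate number deviated together across genotypes (correlation across genes 0.25 to 0.547 in 15 of 15 pairs of genotypes). NPC counts of members among the knock-in lines are given below also without the Q20 libraries, or with WT in place of Q20. The share of all genes called stands beside the main counts and those with WT as the reference. It was not counted for the other alternative fits.

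All 39 members were read in every library, at levels that spanned a wide range. Per kilobase of exon, the most abundant members were the lysosomal membrane glycoprotein Lamp1, with a median over 12 libraries of 171 CPM per kb in mESC and 258 in NPC, and the aspartyl protease Ctsd, with 102 and 136. Next came the cargo receptor Sqstm1 in mESC, at 64.9 CPM per kb, and the ATG8 gene Gabarap in NPC, at 81.9. The lowest were the protease gene Atg4c in mESC, at 2.17 CPM per kb, and Tfeb in NPC, at 1.28, with Tfeb at 2.95 in mESC. Lamp1 and Ctsd were thus read at far higher density than the transcription factor known to drive them.

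The 12 NPC and 12 mESC libraries were scaled in separate tables, so their levels are set side by side without a test. For 5 of 39 members the ranges of the cell types did not overlap, against 25.6% of the 12321 genes tested in both. NPC was above mESC for 4 of them, against 15.2% of genes. The kinase gene Ulk2 ran from 5.68 to 30.1 CPM in mESC and from 62.7 to 162 CPM in NPC. Atg9a, whose product scrambles lipids in the vesicles that seed the autophagosome, ran from 9.34 to 19.3 and from 27.6 to 66.5 CPM. Atg3, the enzyme that passes ATG8 proteins to lipid, ran from 25.5 to 43.3 and from 43.5 to 80.6 CPM, a gap narrower than the spread within either. The ATG8 gene Gabarap ran from 30.1 to 57.3 and from 103 to 224 CPM. Atg101, a subunit that stabilises the ULK complex, was the member with NPC below mESC, from 19.3 to 35.9 CPM in mESC and from 9.24 to 15.2 CPM in NPC. The remaining 34 members overlapped.

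**Figure D1:**
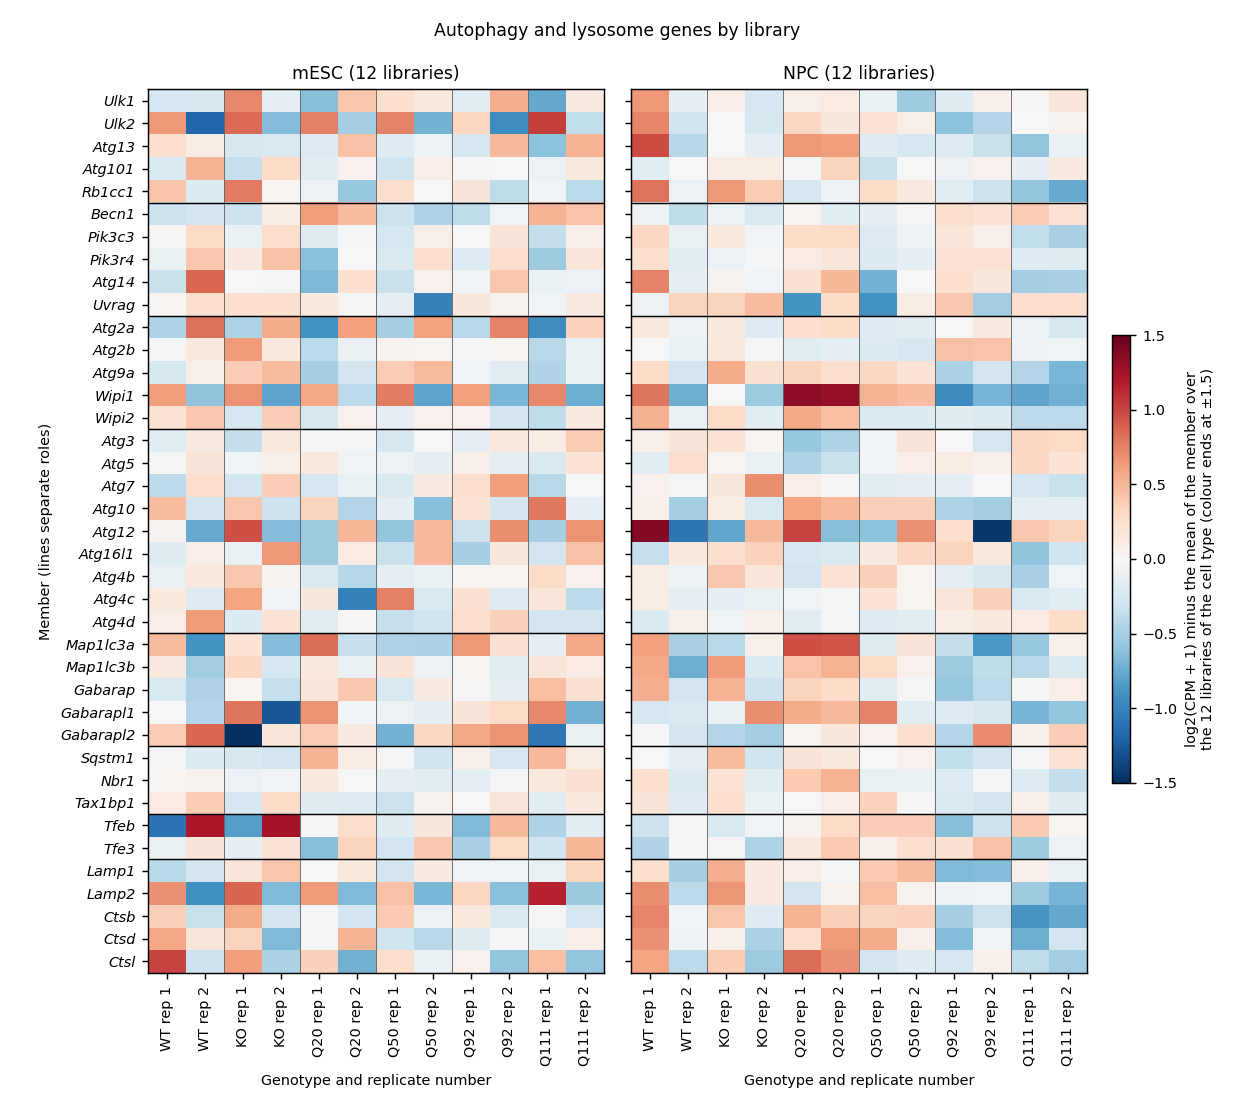
Each row is a member, grouped by role between black lines, and each column is a library of mESC (left) or NPC (right). Colour gives log2(CPM + 1) minus the mean of the member over the 12 libraries of that cell type. In mESC neighbouring columns of replicate 1 and 2 alternate for Ulk2, Wipi1, Lamp2 and Atg2a, and in NPC Wipi1 is high in the Q20 columns and low in the Q92 and Q111 columns.

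TFEB and TFE3 are known to bind DNA around the letters CACGTG, so the promoters of members were searched for them. RefSeq promoters of build GRCm38.p6, from 250 bases before to 50 after each start, were found for 32 of the 39 members. Not matched were Atg12, Atg16l1, Becn1, Ctsb, Map1lc3a, Pik3c3 and Rb1cc1. CACGTG reads the same on both strands. It was present in 7 of the 32 members (21.9%), Atg14, Atg3, Atg5, Atg7, Ctsd, Ctsl and Lamp1, and in 7.15% of all 32851 promoters. A member counted if any of its promoters held the letters, and the 32 members had 38 promoters. The longer TCACGTGA, which contains CACGTG, was in 2 members, Atg3 and Ctsd, and in 0.974% of promoters. The full CLEAR element, a longer palindrome that contains both, was in 0 of the 32 members and in 0.326% of promoters. Among the 12 members called in the NPC trend on CAG length, described further on, 10 had a promoter and 3 of these held CACGTG, against 4 of the other 22. A match is a description of these letters and not a measured site.

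Lamp1 is shown because its promoter held 4 matches, and Atg5 because it was the 1 member called as rising with CAG length in NPC. Both are the 250 bases before the RefSeq start on the plus strand, chr8:13158911-13159160 and chr10:44268089-44268338, with CACGTG in capitals.
Lamp1: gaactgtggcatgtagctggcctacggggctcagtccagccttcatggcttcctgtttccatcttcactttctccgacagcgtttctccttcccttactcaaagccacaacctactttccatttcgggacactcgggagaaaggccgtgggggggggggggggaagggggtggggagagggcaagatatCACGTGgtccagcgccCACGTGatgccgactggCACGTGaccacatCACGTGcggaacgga
Atg5: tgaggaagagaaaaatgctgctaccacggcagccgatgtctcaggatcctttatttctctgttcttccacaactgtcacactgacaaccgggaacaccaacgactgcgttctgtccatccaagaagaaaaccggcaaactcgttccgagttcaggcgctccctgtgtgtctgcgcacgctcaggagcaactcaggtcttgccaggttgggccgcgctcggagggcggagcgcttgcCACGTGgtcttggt
In Lamp1 the matches began 61, 45, 28 and 15 bases before the start, and in Atg5 the single match began 14 bases before it.

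Ctsd and Atg3 are shown because they held the longer TCACGTGA. Their windows overlap annotated exons, so 30 bases around each CACGTG match are printed on the strand of the gene. For Ctsd, on the minus strand, these are chr7:142388048-142388077 and chr7:142387908-142387937. For Atg3, on the plus strand, they are chr16:45158723-45158752 and chr16:45158746-45158775.
Ctsd, match 245 bases before the start: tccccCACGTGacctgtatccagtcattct
Ctsd, match 98 bases before the start: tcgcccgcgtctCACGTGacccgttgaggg
Atg3, match 94 bases before the start: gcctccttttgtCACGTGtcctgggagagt
Atg3, match 71 bases before the start: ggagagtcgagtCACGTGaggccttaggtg
The longer TCACGTGA is complete in the second Ctsd line and in the second Atg3 line.

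The first comparison asks whether loss of Htt changed these genes. Differences were tested with limma on log2(CPM + 1), and a gene was called where its Benjamini-Hochberg adjusted p over all genes tested was under 0.05. In mESC, 0 of 39 members were called between KO and WT, where 0.0144% of the 13916 genes tested were. At an unadjusted p under 0.05 there were 2 members, and edgeR on the recovered reads called 0. The main mESC fits by genotype and CAG length had no term for the replicate number. Differences between the numbers, given below, therefore added to their error and made a call less likely. With the number as a block, no member was called between KO and WT either. In the main fit the smallest p belonged to Lamp1, at 526 and 624 CPM in KO and 348 and 386 in WT, with log2 change 0.64 (SE 0.21, adjusted p = 0.985). Both KO libraries were above both WT libraries, but the difference did not pass the test. Because Htt was not lower in the library labelled KO 1, the direction rests on that label; without KO replicate 1 the change was 0.77 and was not called.

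In NPC, 0 of 39 members were called between KO and WT, where 1.42% of the 13206 genes tested were, 0.878% higher and 0.545% lower. No member had an unadjusted p under 0.05 (0 of 39), and edgeR called 0. The smallest p was that of Atg7, the enzyme that activates ATG8 and ATG12, at 37.9 and 55.1 CPM in KO and 35.2 and 33.3 in WT, with log2 change 0.41 (SE 0.18, adjusted p = 0.401). Both KO libraries were above both WT libraries, with KO 2 far above KO 1. The WT NPC libraries also differed from each other in many members. Wipi1 was at 36.9 and 12.1 CPM in WT 1 and WT 2, Ctsb at 374 and 219, and Map1lc3b at 174 and 70.00, each higher in WT 1. Without WT replicate 2 the count became 3, with Atg13, Ulk2 and Wipi1 called lower in KO.

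In mESC the knock-in lines gave the same count of 0. Of the 39 members, 0 were called between Q20 and WT (0.323% of all genes, 0.259% higher and 0.0647% lower), between Q50 and Q20 (0.00719%), between Q92 and Q20 (0.00719%), between Q111 and Q20 (0%), in the trend on CAG length (0%) and in a test of any difference among the knock-in lines (0.0719%). At an unadjusted p under 0.05 these comparisons held 2, 2, 1, 1, 1 and 2 members, and edgeR called 0 in each. The member with the smallest p was most often Becn1, which encodes the scaffold of the class III kinase complex. It was at 107 and 94.9 in Q20, 54.96 and 49.4 in Q50, 52.7 and 65.5 in Q92 and 98.1 and 93.04 in Q111, and at 54.9 and 56.3 CPM in WT and 55.2 and 74.5 in KO. The libraries of Q20 and Q111 were all above those of every other genotype. Q20 minus WT was 0.84 (SE 0.21, adjusted p = 0.139). With the replicate number as a block, since numbers pair the mESC libraries, its adjusted p was 0.0262 and Becn1 was the 1 member called. Q50 minus Q20 was -0.94 (SE 0.21, adjusted p = 0.398) and Q92 minus Q20 was -0.77 (SE 0.21, adjusted p = 0.595), neither called, and the test of any difference among the lines gave an adjusted p of 0.324 for it. For Q111 against Q20 and for the trend, the smallest p was that of Atg4b, the main protease that trims ATG8 proteins, with 0.49 (SE 0.21, adjusted p = 0.999) and 0.46 (SE 0.17, adjusted p = 1). It was at 41.6 and 35.7 in Q20, 43.8 and 44.98 in Q50, 49.3 and 49.3 in Q92 and 58.7 and 50.4 in Q111 CPM, so Q111 lay above Q20 without overlap, while the test did not call it. Marker sums set the mESC knock-in lines apart from WT and KO. Fibroblast markers summed to 23.5 and 35.3 CPM in WT, 26.2 and 29.2 in KO and between 59.1 and 97.8 in knock-in libraries. Neural progenitor markers summed to 139 and 193 in WT, 176 and 206 in KO and between 225 and 548 in knock-in libraries. Within these lists Col1a2 and Nes were higher in every knock-in library, while Thy1 and Pax6 overlapped. Their part in the results was not tested.

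Libraries of replicate number 1 and number 2 were also compared in mESC. This comparison was chosen after the data were seen, and the labels do not say what the numbers share. With genotype in the fit, 22 of 39 members were called between number 1 and number 2, where 43.3% of all genes were: 10 were higher in number 1 (22.8% of all genes) and 12 lower (20.5%). The 6 libraries of each number did not overlap for 10 members, 6 with number 1 above (8.53% of all genes) and 4 with number 2 above (8.49%).

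The members higher in number 1 included 3 of the 5 lysosomal members, Lamp2, Ctsb and Ctsl; Lamp1 was lower and Ctsd was not called. Lamp2, a membrane protein needed for late steps of autophagy, ran from 85.9 to 154 with a median of 109 CPM in number 1 and from 35.6 to 46.3 with a median of 42.97 in number 2, a log2 difference of 1.37 (SE 0.11, adjusted p = 0.000179). The cysteine protease Ctsl ran from 212 to 410.2 with a median of 269 and from 123 to 189 with a median of 140.0 CPM, a difference of 0.93 (SE 0.12, adjusted p = 0.000988). Neither pair of ranges overlapped. Ulk2 ran from 18.04 to 30.1 with a median of 24.6 and from 5.68 to 10.8 with a median of 8.47 CPM, a difference of 1.45 (SE 0.11, adjusted p = 0.000136). Wipi1, a reader of the phosphoinositide mark, ran from 17.4 to 19.8 with a median of 18.2 and from 6.09 to 8.37 with a median of 6.51 CPM, a difference of 1.32 (SE 0.11, adjusted p = 0.000178). Their ranges were separate too. The other 6 members that were higher, Atg4c, Atg10, Rb1cc1, Ctsb, Map1lc3b and Sqstm1, differed by between 0.26 and 0.70 on the log2 scale.

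Members lower in number 1 included both transcription factors. Tfe3 ran from 33.3 to 48.4 with a median of 42.5 CPM in number 1 and from 59.6 to 74.2 with a median of 65.2 in number 2, a difference of -0.64 (SE 0.11, adjusted p = 0.00251), without overlap. Tfeb ran from 7.70 to 17.8 with a median of 11.7 and from 15.6 to 43.5 with a median of 23.2 CPM, a difference of -1.08 (SE 0.32, adjusted p = 0.0281), with overlapping ranges. The lipid transfer gene Atg2a ran from 21.9 to 31.7 with a median of 30.4 and from 54.9 to 76.5 with a median of 65.99 CPM, a difference of -1.23 (SE 0.09, adjusted p = 0.000127). Its paralog Atg2b was not called (-0.06). The other 9 members that were lower were Atg16l1, Pik3r4, Atg14, Atg7, Atg101, Pik3c3, Tax1bp1, Atg3 and Lamp1, with log2 differences from -0.66 to -0.23. Of the other lysosomal hydrolases and activators, 19 of 40 tested were higher in number 1 and 2 lower. Cell type markers moved with the number too: of 7 pluripotency markers tested 1 was higher in number 1 (Dppa5a) and 3 were lower (Pou5f1, Klf4 and Zfp42). Pou5f1 was at 421 and 880.0 CPM in WT 1 and 2, 359 and 813 in KO, 326 and 433 in Q20, 374 and 562 in Q50, 372 and 534 in Q92 and 280 and 455 in Q111, lower in number 1 in each genotype, a difference of -0.74 (SE 0.11, adjusted p = 0.00157). Of 7 neural progenitor markers 2 were lower (Pax6 and Vim), of 6 neuron markers 2 were higher and 1 lower (Tubb3), and of 5 astrocyte markers 1 was higher (Aldoc). Of 8 fibroblast markers 2 were higher and 4 lower in number 1, and both microglia and macrophage markers tested, Cd68 and Laptm5, were lower, while Cx3cr1, Aif1 and Csf1r, which define those cells, were below 1 CPM in all 12 libraries. The part of these markers in the result was not tested.

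**Figure D2:**
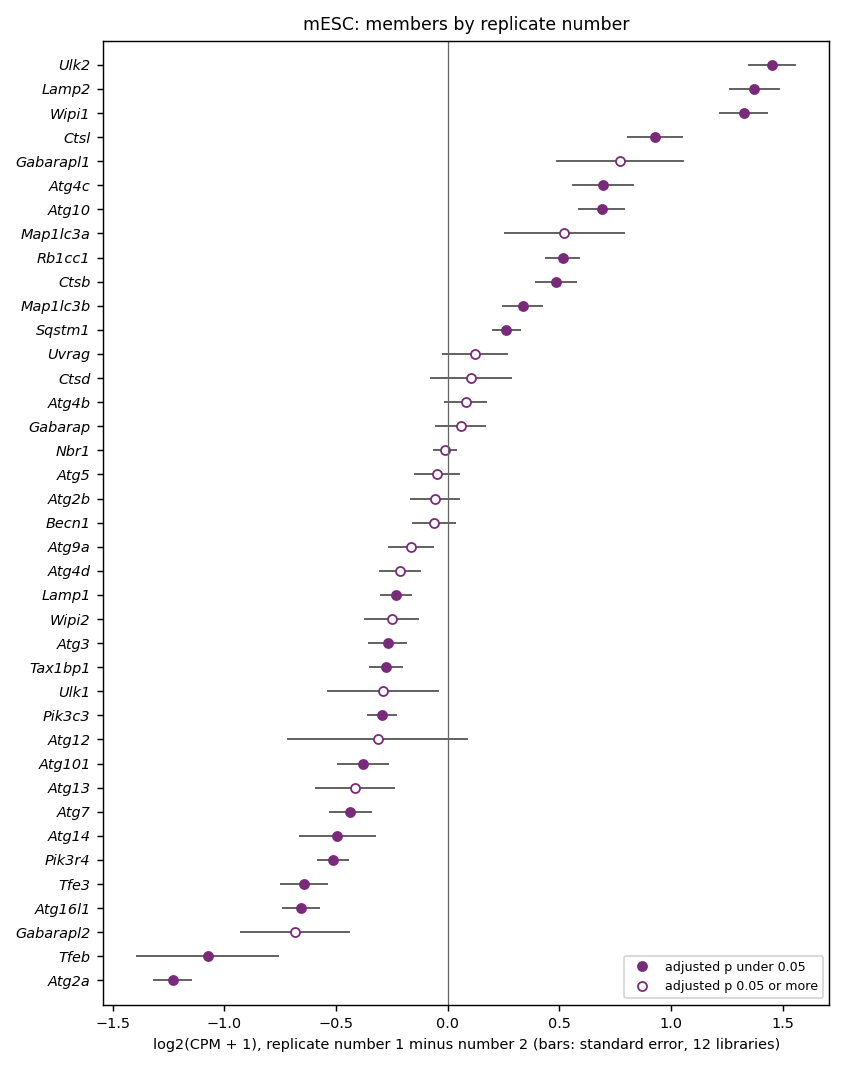
Points give, for each member in mESC, log2(CPM + 1) in replicate number 1 minus number 2 with genotype in the fit, bars its standard error over 12 libraries, and filled points an adjusted p under 0.05. The 22 filled members run from Atg2a at -1.23 to Ulk2 at 1.45.

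The next comparison asks whether the genes followed the repeat length in NPC. The trend is the slope of log2(CPM + 1) on CAG number over the 8 knock-in libraries, given as the change over the 91 repeats from 20 to 111. It was called for 12 of 39 members, where 22% of the 13206 genes tested were: 11 members fell with CAG length (10.1% of all genes) and 1 rose (12%). The median slope was -0.39 over the members and 0.04 over all genes tested, and 31 of the 39 slopes were below 0. By role, 3 of 5 genes of lipid supply and phosphoinositide effectors fell, 3 of 5 ATG8 genes, 3 of 5 lysosomal membrane and cathepsin genes and 1 of 3 cargo receptors. Of the 9 conjugation genes 1 fell and 1 rose. None (0) of the 5 ULK complex genes, the 5 kinase complex genes or the 2 transcription factors was called, and 1, 1 and 0 of these had an unadjusted p under 0.05. The count depended on the Q20 line. Without Q20 the count was 5, Atg9a, Ctsb, Lamp2, Rb1cc1 and Wipi1, of which 3 are among the 12, and with 1 mean value per line it was 0.

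Among the phosphoinositide effectors, Wipi1 had the largest slope of any member. It was at 54.03 and 52.8 in Q20, 30.3 and 28.97 in Q50, 10.3 and 12.4 in Q92 and 11.6 and 12.2 in Q111 CPM. Both Q20 libraries were above both Q50 libraries, which were above all 4 libraries of Q92 and Q111. The slope was -2.24 (SE 0.24, adjusted p = 0.0011). Its relative Wipi2, which recruits the conjugation machinery to the membrane, was at 233 and 214 in Q20, 135 and 136 in Q50, 138 and 136 in Q92 and 119 and 119 in Q111 CPM. Q20 was far above the rest, whose values lay close together, and the slope was -0.76 (SE 0.18, adjusted p = 0.0227). Atg9a was at 56.97 and 53.4 in Q20, 56.1 and 51.8 in Q50, 32.1 and 36.8 in Q92 and 32.8 and 27.6 in Q111 CPM. Its Q20 and Q50 libraries overlapped and all 4 lay above the 4 of Q92 and Q111, with a slope of -0.93 (SE 0.17, adjusted p = 0.00752). The lipid transfer genes Atg2a and Atg2b were not called, at -0.26 and 0.34.

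Of the ATG8 genes, 3 fell. Map1lc3b encodes the ATG8 protein most used as an autophagosome marker, and was at 157 and 168 in Q20, 144 and 122 in Q50, 79.97 and 89.4 in Q92 and 87.8 and 100.5 in Q111 CPM. The libraries of Q20 and Q50 were all above those of Q92 and Q111, and the slope was -0.91 (SE 0.16, adjusted p = 0.00772). Map1lc3a was at 37.4 and 36.8 in Q20, 16.4 and 21.6 in Q50, 14.4 and 9.85 in Q92 and 12.3 and 19.8 in Q111 CPM. Q20 was above the other lines, among which Q111 overlapped both Q50 and Q92, and the slope was -1.28 (SE 0.36, adjusted p = 0.037). Gabarapl1 was at 77.6 and 73.6 in Q20, 88.3 and 46.5 in Q50, 45.5 and 44.2 in Q92 and 31.8 and 34.5 in Q111 CPM, with the Q50 libraries far apart. Its slope was -1.14 (SE 0.24, adjusted p = 0.0146). Gabarap and Gabarapl2, also ATG8 genes, were not called, at -0.42 and 0.09.

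All 3 cathepsin members fell. The cysteine protease Ctsb was at 319.8 and 288 in Q20, 283 and 286 in Q50, 159 and 179 in Q92 and 122 and 131 in Q111 CPM. The lines stepped down from Q50 to Q92 to Q111 without overlap, and the slope was -1.30 (SE 0.16, adjusted p = 0.00179). Ctsd was at 376 and 497 in Q20, 467 and 336 in Q50, 202 and 306 in Q92 and 191 and 263 in Q111 CPM, where the Q20 and Q50 libraries, which overlapped, were above those of Q92 and Q111. Its slope was -1.03 (SE 0.25, adjusted p = 0.0223). Ctsl was at 208 and 187 in Q20, 95.8 and 101 in Q50, 97.1 and 122 in Q92 and 88.8 and 80.2 in Q111 CPM, with Q20 far above the rest. The slope was -0.97 (SE 0.26, adjusted p = 0.0337). The membrane proteins Lamp1 and Lamp2 were not called, at -0.47 and -0.49.

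The conjugation genes moved in both directions. Atg5, part of the complex that directs ATG8 attachment, was at 36.6 and 40.4 in Q20, 49.3 and 54.6 in Q50, 55.1 and 53.96 in Q92 and 63.4 and 58.9 in Q111 CPM. Both Q20 libraries were the lowest and both Q111 libraries the highest, and the slope was 0.58 (SE 0.15, adjusted p = 0.0266). Atg10, which joins ATG12 to ATG5, was at 6.37 and 5.88 in Q20, 5.30 and 5.28 in Q50, 2.56 and 2.41 in Q92 and 3.44 and 3.46 in Q111 CPM. Its Q92 libraries lay below those of Q111, so the order of the lines did not follow CAG length throughout, and the slope was -0.90 (SE 0.26, adjusted p = 0.0425). The cargo receptor Nbr1 was at 468 and 514 in Q20, 330.4 and 335 in Q50, 312 and 354 in Q92 and 313 and 278 in Q111 CPM, with Q20 above the other lines. Its slope was -0.62 (SE 0.17, adjusted p = 0.0316). The receptors Sqstm1 and Tax1bp1, which also link ubiquitin-tagged cargo to ATG8 proteins, were not called, at -0.22 and -0.24.

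**Figure D3:**
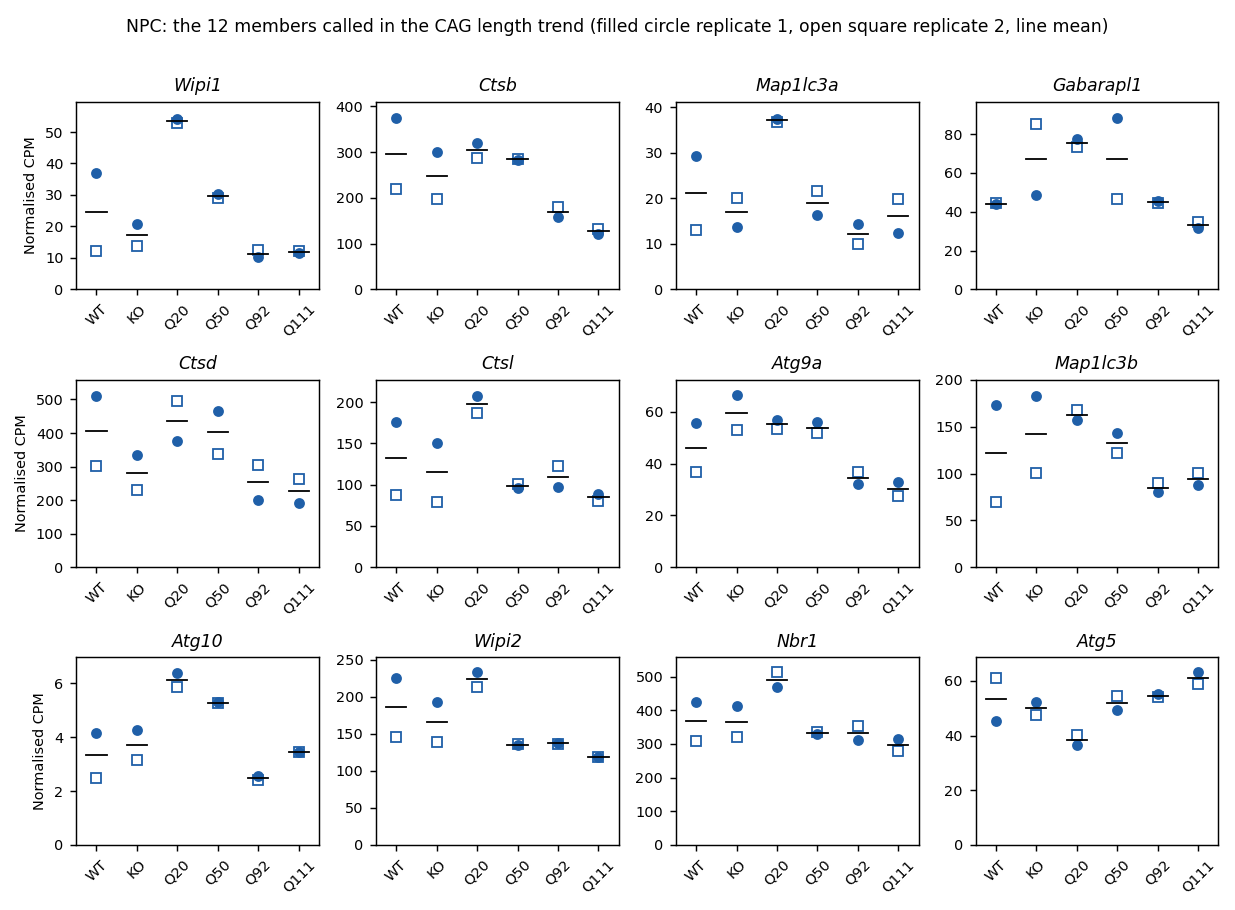
Each panel is 1 of the 12 members called in the NPC trend, with normalised CPM on an axis from 0 and the 6 genotypes along the bottom; filled circles are replicate 1, open squares replicate 2 and bars the mean of both. WT and KO were not used in the trend. Wipi1 steps down from 54.03 and 52.8 in Q20 to 11.6 and 12.2 in Q111, while Atg5 steps up, and the WT libraries of Wipi1, Ctsb and Map1lc3b lie far apart.

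Single libraries changed the trend count. It was 5 without Q20 replicate 1, 5 without Q20 replicate 2, 4 without Q111 replicate 1 and 7 without Q111 replicate 2. Atg9a, Wipi1, Ctsb and Map1lc3b kept their call in each of the 8 fits that left out 1 library, and Atg10 lost it in all 8. Several members lie in or across other annotated genes: Ctsd and Map1lc3b overlap Gm49369 and Gm20388 on the same strand, Ctsl overlaps the pseudogene Gm49230 and the antisense Gm47123, and Atg9a and Ctsb overlap Ankzf1 and Fdft1 on the opposite strand. The use of strand in counting is not given in the sources used here, so their reads could be split with these genes.

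Markers of cell types also differed between the knock-in lines. Of 7 astrocyte markers 4 fell with CAG length and 0 rose, and their sum was 2609.6 and 2306 CPM in Q20, 1766 and 1170.0 in Q50, 348 and 556 in Q92 and 287 and 276 in Q111, with 2133 and 1275 in WT and 1449 and 915 in KO. Of 9 fibroblast markers 6 fell and 0 rose, with sums of 375 and 310.2 CPM in Q20, 1029 and 1090.3 in Q50, 190.2 and 183 in Q92 and 121 and 126 in Q111. Most of the Q92 and Q111 sums came from Fbn1, which was lower in Q20. It was at 64.1 and 58.2 CPM in Q20 and 134 and 173 in Q50. In Q92 it was at 184 and 176, and in Q111 at 118 and 124. The astrocyte and fibroblast sums were both lowest in Q111, and the collagen gene Col1a2 was under 1 CPM in all 4 libraries of Q92 and Q111. No astrocyte marker was at 0 in these libraries, although Gfap was at 0.182 and 0.0938 CPM in Q92 and 2.82 and 2.44 in Q111. Aldh1l1, also an astrocyte marker, did not follow the sum. It was at 235 and 215 CPM in Q20, 23.7 and 30.4 in Q50, 3.75 and 4.10 in Q92 and 137 and 131 in Q111. Pluripotency markers summed to 108 and 106 CPM in Q20 and to between 4.72 and 26.5 CPM in the other knock-in libraries. Most of the Q20 sum came from Pou5f1, with Nanog next at 13.0 and 13.7 CPM. Klf4 went another way, at 3.19 and 3.83 in Q20, 2.19 and 2.62 in Q50, 13.2 and 18.5 in Q92 and 10.9 and 10.2 in Q111. Esrrb was at 0.721 and 0.751 CPM in Q20 and 2.49 and 7.74 in Q92. Neural progenitor markers summed to 4007 and 4191 CPM in Q20 and 9214 and 9383 in Q50. Their sums were 6483 and 6687 in Q92 and 5427 and 6187 in Q111. Genes of that list went both ways. Nes was at 353 and 393 CPM in Q20 and 814 and 803 in Q111, and Hes5 at 64.1 and 37.3 in Q20 and 4.47 and 10.1 in Q111. Of 7 neuron markers 1 fell (Dcx) and 0 rose, and their sum, most of it from Map2, was 785 and 961 CPM in Q20, 948 and 1032 in Q50, 1041 and 909 in Q92 and 769 and 747 in Q111. Microglia and macrophage markers summed to between 1.66 and 4.25 CPM over all 12 NPC libraries. The part of these cell types in the slopes of the members was not tested, and in such bulk samples fewer cells of a type and less RNA per cell cannot be told apart.

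Each longer knock-in line was also set against Q20, the shortest repeat, which serves all 3 comparisons as the control. Q50 against Q20 called 1 of 39 members, where 18.8% of all genes were called, 8.05% higher and 10.7% lower. This was Atg3, at 43.5 and 46.9 in Q20, 62.98 and 74.5 in Q50, 64.7 and 54.4 in Q92 and 80.6 and 80.2 in Q111 CPM, with a change of 0.59 (SE 0.15, adjusted p = 0.0244) in Q50. It was also the 1 member called between Q20 and WT, where 14.5% of all genes were, 9.97% higher and 4.57% lower: WT was at 68.5 and 74.5 CPM and Q20 below both, by -0.65 (SE 0.15, adjusted p = 0.0199). Both Q20 libraries were lower for Atg3 than all other NPC libraries. Without Q20 replicate 1 or without Q20 replicate 2 neither comparison called a member (0), and without Q50 replicate 2 the first called 0. The Q20 against WT count was 10 without WT replicate 1, and without WT replicate 2 the 1 member called was Rb1cc1, the large scaffold of the ULK complex.

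Q92 against Q20 called 6 members, where 25.8% of all genes were called, 5 lower (15.9%) and 1 higher (9.88%). The lower ones were Wipi1 with -2.14 (SE 0.43, adjusted p = 0.00808), Map1lc3a with -1.56 (SE 0.40, adjusted p = 0.0225), Atg10 with -1.03 (SE 0.21, adjusted p = 0.00973), Ctsb with -0.84 (SE 0.27, adjusted p = 0.0489) and Wipi2 with -0.70 (SE 0.22, adjusted p = 0.0452). Atg2b was higher, with 0.58 (SE 0.11, adjusted p = 0.00539). It was at 113 and 115 in Q20, 109 and 106 in Q50, 172 and 171 in Q92 and 120.2 and 122 in Q111 CPM, so both Q92 libraries stood above all other knock-in libraries. Atg2b kept its call in each fit that left out 1 library. The count fell to 1 without Q20 replicate 1, 3 without Q20 replicate 2, 1 without Q92 replicate 1 and 2 without Q92 replicate 2.

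Q111 against Q20 called 11 members, where 28.3% of all genes were called. Of these 9 were lower (16.1% of all genes) and 2 higher (12.2%). The largest falls were those of Wipi1, -2.08 (SE 0.43, adjusted p = 0.0095), Ctsb, -1.26 (SE 0.27, adjusted p = 0.0104), Ctsl, -1.21 (SE 0.36, adjusted p = 0.0381), and Gabarapl1, -1.17 (SE 0.32, adjusted p = 0.0291). Wipi2, Atg9a, Nbr1, Pik3c3 and Atg10 fell by between 0.68 and 0.90. Pik3c3 encodes the lipid kinase itself and was at 71.2 and 72.4 in Q20, 51.1 and 55.7 in Q50, 66.5 and 62.2 in Q92 and 45.2 and 41.7 in Q111 CPM, lowest in both Q111 libraries, with -0.71 (SE 0.16, adjusted p = 0.0148). Atg3 was higher by 0.82 (SE 0.15, adjusted p = 0.00494) and Atg5 by 0.66 (SE 0.16, adjusted p = 0.0212). Of the conjugation genes, Atg3 and Atg5 were thus higher in Q111 than in Q20 and Atg10 was lower. The ATG8 gene Gabarapl1 and the cathepsin genes Ctsb and Ctsl were lower too. The count was 1, Atg3, without Q20 replicate 1, without Q111 replicate 1 or without Q111 replicate 2, and 3, Atg3, Ctsb and Wipi1, without Q20 replicate 2.

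With WT in place of Q20 as the reference, the counts were lower. The count was 0 of 39 in Q50, where 6.62% of all genes were called, 4.54% higher and 2.08% lower. It was 1 in Q92, Atg2b, which was higher, where 8.66% were called, 3.42% higher and 5.25% lower. It was 3 in Q111, Becn1, which was higher, and Ctsb and Rb1cc1, which were lower, where 16.6% were called, 8.74% higher and 7.9% lower. Among NPC libraries Ctsb was at 374 and 219 CPM in WT and 122 and 131 in Q111, Rb1cc1 at 214 and 114 and 81.00 and 71.1, and Becn1 at 78.4 and 63.2 and 108 and 96.7. Both Q111 libraries were below both WT libraries for Ctsb and Rb1cc1 and above them for Becn1.

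A test of any difference among the 4 knock-in lines, in any order, called 13 of 39 members in NPC, where 41% of all genes were called. The adjusted p ran from 0.00575 for Atg2b to 0.0493 for Atg5. Beside 7 members called in the trend, Wipi1, Ctsb, Atg10, Atg9a, Wipi2, Nbr1 and Atg5, it called 6 that were not: Atg2b, Atg3, Lamp1, Pik3c3, Atg16l1 and Tfeb. Lamp1 was at 697 and 635 in Q20, 851 and 898 in Q50, 409 and 412 in Q92 and 685 and 600.2 in Q111 CPM (adjusted p = 0.0296). Both Q50 libraries were the highest and both Q92 libraries the lowest, with Q20 and Q111 between them. Atg16l1, the subunit that places the conjugation complex on the membrane, was at 55.7 and 57.9 in Q20, 74.1 and 83.9 in Q50, 85.2 and 74.9 in Q92 and 44.1 and 54.4 in Q111 CPM (adjusted p = 0.0367). Q50 and Q92 were above Q20 and Q111. Tfeb was at 7.49 and 9.07 in Q20, 9.53 and 9.52 in Q50, 4.26 and 5.503 in Q92 and 9.75 and 7.30 in Q111 CPM (adjusted p = 0.048), lowest in both Q92 libraries. The levels of these 3 members were thus highest or lowest in a line of middle repeat length. The count was between 1 and 6 in the 8 fits that each left out 1 library of any knock-in line, and Atg2b was called in all of these. Without the Q20 line it was 2, Atg2b and Lamp1.

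The remaining members were not called in the NPC trend; Rb1cc1, Becn1 and Tfeb among them were called in other NPC comparisons given above. In the ULK complex, Ulk1, a kinase that starts autophagy, ran from 14.3 to 33.9 CPM over the 12 NPC libraries, with a slope of 0.05, and Ulk2 had a slope of -0.46. The adaptor Atg13 was at 21.3 and 21.03 in Q20, 11.5 and 10.9 in Q50, 11.5 and 10.3 in Q92 and 8.45 and 12.2 in Q111 CPM, where Q20 was above the other lines. Its slope was -0.86 (SE 0.28, adjusted p = 0.0602) and was not called. Atg101 had a slope of -0.08, and Rb1cc1, at 101 and 114 in Q20, 148 and 133 in Q50, 108 and 96.8 in Q92 and 81.00 and 71.1 in Q111 CPM, one of -0.54. Both Q111 libraries of Rb1cc1 were the lowest of the 12 NPC libraries.

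In the kinase complex, Becn1 was at 85.1 and 73.99 in Q20, 75.96 and 81.6 in Q50, 99.4 and 95.4 in Q92 and 108 and 96.7 in Q111 CPM. The Q92 and Q111 libraries were above those of Q20 and Q50, and the slope of 0.41 (SE 0.13, adjusted p = 0.0513) was not called. Pik3r4, the regulatory subunit, ran from 59.2 to 81.3 CPM with a slope of -0.13, and Atg14, which directs the complex to the autophagosome, ran from 10.96 to 31.9 CPM with a slope of -0.50. Uvrag, which takes the place of Atg14 in the endosomal form of the complex, ran from 22.9 to 60.5 CPM. Libraries of 1 line could differ widely here: Uvrag was at 23.1 and 53.2 CPM in Q20, 22.9 and 47.3 in Q50 and 58.01 and 30.05 in Q92. For such a member the spread between replicates was as wide as that between lines.

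The same held for Atg12, the ubiquitin-like protein joined to ATG5. It was at 112 and 19.4 CPM in WT, 24.4 and 59.6 in KO, 86.7 and 26.8 in Q20 and 51.2 and 14.9 in Q92, so its slope of -0.14 had the widest standard error of the 39 members, 0.69. Among the proteases, Atg4b ran from 46.9 to 88.3 CPM, Atg4c from 9.38 to 14.6 and Atg4d from 32.3 to 45.5, with slopes of -0.34, -0.04 and 0.35. Atg7 had a slope of -0.26. Tfe3 ran from 24.5 to 48.9 CPM with a slope of -0.39, and Tfeb had one of -0.32. None of these was called.

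Whether the slopes differed between the cell types was tested directly, over the 16 knock-in libraries of both. The difference was called for 2 of 39 members, where 4.86% of the 12321 genes tested in both were called. Both slopes were lower in NPC, against 2.16% of genes lower and 2.7% higher. For Ctsb the slope was -1.30 in NPC and -0.03 in mESC, a difference of -1.26 (SE 0.28, adjusted p = 0.0183). In mESC its libraries were at 116 and 96.4 in Q20, 154 and 110.2 in Q50, 129.7 and 100.3 in Q92 and 118 and 98.1 in Q111 CPM, with the lines overlapping. For Map1lc3b the slopes were -0.91 and 0.04, a difference of -0.95 (SE 0.23, adjusted p = 0.0303). Its mESC libraries were at 111 and 93.1 in Q20, 114 and 94.9 in Q50, 103 and 88.5 in Q92 and 113 and 108 in Q111 CPM and overlapped too. Wipi1 had a larger difference, -2.14 (SE 0.69, adjusted p = 0.0876), but a wide spread in mESC, where its replicate numbers stood apart, and with the replicate number as a block its adjusted p was below 0.05 and the count became 3. The other 37 members, Wipi1 included, were not called without the block, which does not show that their slopes were alike. For Ctsb the call was lost without mESC Q20 replicate 2 and in none of the other 15 fits that left out 1 library. For Map1lc3b it was lost in 6 of the 16 fits that left out 1 library. With 1 mean value per line both were lost, so that the count was 0, with 5 members at an unadjusted p under 0.05. Without the Q20 libraries of NPC the count was 2, Ctsb, with a difference of -1.68, and Atg4b, while Map1lc3b was not called.

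**Figure D4:**
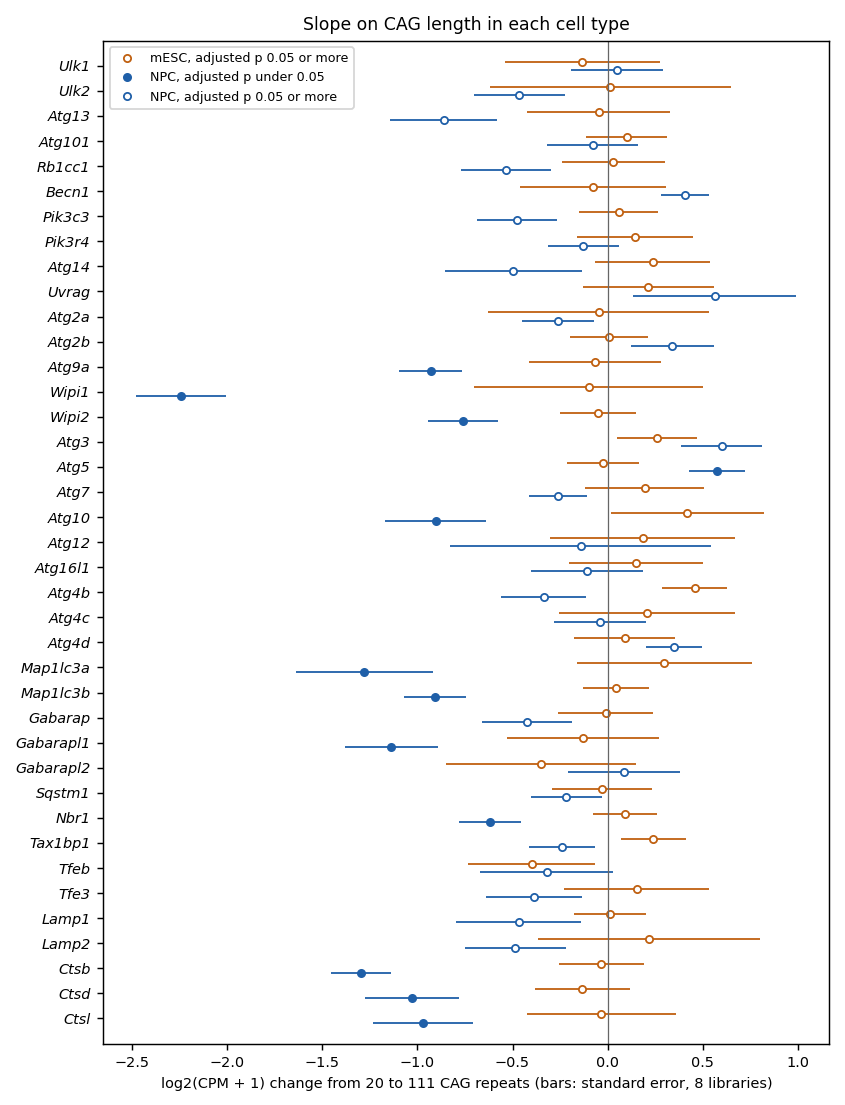
For each member, points give the change in log2(CPM + 1) over the range from 20 to 111 CAG repeats, in mESC (orange) and NPC (blue), with bars for the standard error over 8 libraries; filled points have an adjusted p under 0.05. In mESC every point is open, and in NPC 11 of the 12 filled points lie to the left of 0.

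Other genes of the same pathway, in lists that do not hold the 39 members, were read in the same NPC trend. Of the other autophagy machinery and receptors, 8 of 36 tested fell and 0 rose, with a median slope of -0.16. Pink1, a kinase that marks damaged mitochondria for autophagy, had the smallest p, with -1.99 (SE 0.18, adjusted p = 0.000828), and the receptor Optn fell by -1.41 (SE 0.24, adjusted p = 0.00611). Of the other lysosomal hydrolases and activators, 14 of 41 fell and 0 rose, with a median of -0.52, led by the cysteine protease Ctsf with -2.35 (SE 0.23, adjusted p = 0.000939). Of the other lysosomal membrane proteins, 4 of 17 fell and 0 rose (median -0.29), led by the cystine transporter Ctns with -0.90 (SE 0.16, adjusted p = 0.00674). Among the subunits of the vacuolar ATPase, which acidifies the lysosome, 0 of 17 were called (median -0.20, 2 with an unadjusted p under 0.05). Genes of mTORC1, AMPK and transcription control, which set the rate of autophagy by nutrient state, moved both ways: 3 of 34 rose, led by the AMPK subunit Prkaa1 with 1.01 (SE 0.18, adjusted p = 0.0069), and 2 fell, led by Nprl2, an inhibitor of mTORC1 signalling, with -1.02 (SE 0.20, adjusted p = 0.0105). Beside these counts, 10.1% of all genes fell and 12% rose, and the lists were not tested against each other. Without Q20, Pink1 and Ctsf kept their call and Ctns, Prkaa1 and Nprl2 lost it. The marker sums given above moved along the same lines. Between KO and WT, 0 genes of these 5 lists were called in NPC, where 1, 4, 2, 3 and 2 of them had an unadjusted p under 0.05.

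**Figure D5:**
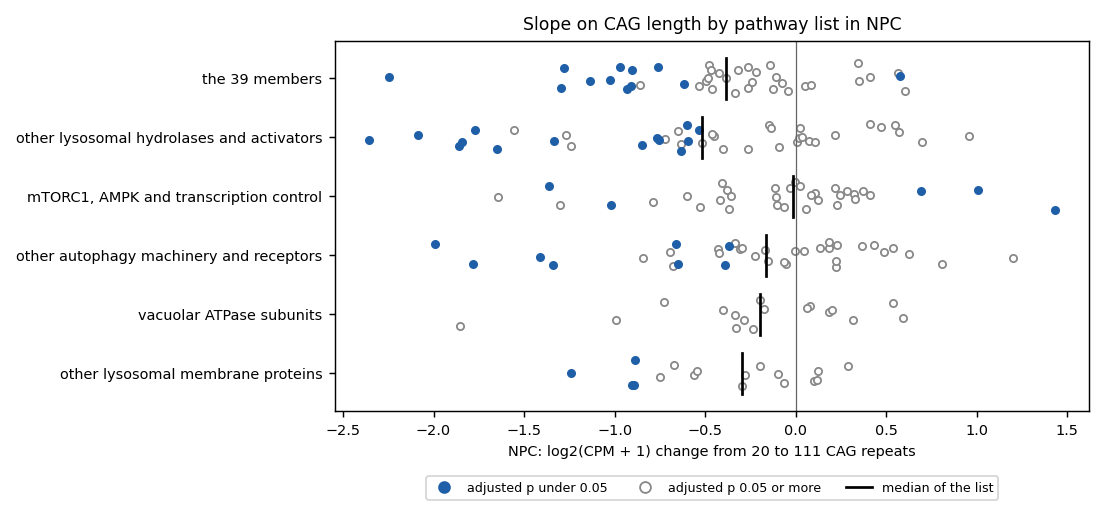
Each point is a gene, placed by its NPC slope as the change in log2(CPM + 1) from 20 to 111 CAG repeats; rows are the 39 members and the 5 other lists, with vertical scatter for legibility, filled points for an adjusted p under 0.05 and a black bar at the median. The medians run from -0.52 for the other hydrolases to -0.02 for mTORC1, AMPK and transcription control.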

How the data were processed

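Total RNA of 12 mESC and 12 NPC libraries was sequenced as paired-end 75-base reads, per the labels. The submitters' processing notes name CASAVA 1.8, STAR and GRCm38.p6, with no role; the counter, its use of strand and the gene filter are not given in the sources used here. The authors deposited 1 table per cell type of a normalised signal that they named CPM; its columns sum to between 900342 and 1080734 and not to 1 common total. All values (100%) were whole multiples of 1 step per column (tolerance 0.02), which gave back the read counts. Genes with at least 1 CPM in at least 2 libraries were kept, 13916 in mESC and 13206 in NPC, and log2(CPM + 1) was fitted with limma 3.58.1 (R 4.3.3, variance trend) as 6 group means per cell type, or as a slope on CAG number. Benjamini-Hochberg adjustment ran over all genes tested. A log2 change on this scale understates that of low genes. edgeR 4.0.16 on recovered reads (quasi-likelihood test) was an alternative. The fits were also run on simulated counts. These had the same dispersion for all genes and no line or replicate differences beyond the changes put in. That run therefore does not bear on such differences in these libraries.

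Members, lists and tests were chosen with earlier results of these data known. Members are named where called, or by the smallest p where none was; of each other list the smallest p in each direction in the NPC trend is named, and Optn was chosen after its values were seen. Lengths and positions came from GENCODE M21 (GRCm38). The series text calls replicates biological samples but does not say they were separate cultures, so p-values measure the spread between these libraries, which may be technical. Replicate numbers were taken to pair mESC libraries (all 15 correlations over 0.1) but not NPC (3 of 15).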

Additional observations from a re-analysis of the deposited data

Results flagged for a closer look

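The slope on CAG length differed between the cell types for 2 members, by a test of the difference itself. The same test called 4.86% of the 12321 genes tested in both cell types. The count therefore does not set the members apart from genes at large. For the cathepsin gene Ctsb the NPC slope minus the mESC slope was -1.26 on the log2 scale over 91 repeats, and for the ATG8 gene Map1lc3b it was -0.95. In NPC each of the 4 Q92 and Q111 libraries lay below each of the 4 Q20 and Q50 libraries for both genes, and in mESC the libraries of these lines overlapped for both. Without the Q20 libraries of NPC the difference was -1.68 for Ctsb, still called, and -0.89 for Map1lc3b, not called. In the 16 fits that left out 1 library, the call was lost in 1 for Ctsb and in 6 for Map1lc3b. With 1 mean value per line, neither gene was called.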

How the results depend on the processing

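The limits are the 2 libraries per genotype and the single line per repeat length. Counting error adds to the spread most for the members with the fewest reads. In mESC these were Atg4c (at least 227) and Atg10 (at least 309), and in NPC Atg10 (at least 154) and Tfeb (at least 258). With the replicate number as a block the count of members called was 1 for Q20 against WT in mESC, and in NPC 2 for Q20 against WT, 2 for Q50 against Q20 and 7 for the trend; the NPC libraries share only a number. When only the libraries of both groups were fitted in NPC, the counts were 0 for Q20 against WT, 12 for Q50, 19 for Q92 and 21 for Q111 against Q20. With WT as the reference they were 0, 1 and 3 for Q50, Q92 and Q111. Apart from this WT reference, the share of all genes called was not counted for the alternatives in this section. Their counts of members therefore cannot be set against genes at large. A mean CPM of at least 5 gave 3 for Q92 against Q20, and Atg10 had no value under it. The NPC trend count was 0 with 1 mean value per line and 5 with no Q20 line, the count for any difference in NPC was 2 with no Q20 line, an alternative chosen after seeing the data, and the count of slope differences was 0 with 1 mean value per line. Leaving out 1 library gave 0 to 3 members for KO against WT in NPC, 0 to 10 for Q20 against WT, 0 to 1 for Q50, 1 to 3 for Q92 and 1 to 3 for Q111 against Q20, 4 to 12 for the trend, 1 to 6 for any difference and 0 to 3 for slope differences; where this left 1 library in a group, it was assumed to vary like the others. Changes that turned sign were, with WT as the reference, Becn1 in mESC for Q92 (0.079) and, in NPC, Atg3 for Q50 (-0.060) and Atg10 for Q111 (0.069), and, with 1 library left out, Htt in KO against WT in mESC (-0.78 without KO replicate 1, 0.22 without KO replicate 2). With 89 repeats for the third allele the trend count was 12. Over all alternatives 170 of the counts stayed within 1.5 times and 48 did not. The 170 include counts of 0 that stayed 0, as in nearly all mESC alternatives by genotype and CAG length. They are therefore no measure of stability for the comparisons in which members were called. Causes were not tested.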

Other observations

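In mESC, 3 members shared a pattern over genotypes that was seen after the values were known and was not tested. Becn1, the ATG8 gene Gabarap and the cargo receptor Sqstm1 were each higher in all 4 libraries of Q20 and Q111 than in the 8 others. Gabarap was at 47.3 and 55.4 CPM in Q20 and 57.3 and 49.1 in Q111, against 35.3 and 30.1 in WT, 42.4 and 32.5 in KO, 35.4 and 45.8 in Q50 and 41.1 and 37.5 in Q92. Sqstm1 was at 318 and 239 CPM in Q20 and 309.6 and 240.2 in Q111, against 219.5 and 193 in WT, 187 and 183 in KO, 216 and 181 in Q50 and 233 and 186 in Q92. How many of all genes tested had the same split was not counted, so it cannot be read as particular to these members. The summed pluripotency markers were split along the same libraries. They were at 1992 and 2667 CPM in Q20 and 2456 and 2331 in Q111, against between 2691 and 3772 in the 8 others. Within that list Esrrb was lower in the same 4 libraries, while the other genes, such as Nanog and Pou5f1, overlapped. The part of cell state in this pattern was not tested. Atg9a had another split, with KO at 17.8 and 19.3 CPM and Q50 at 17.96 and 19.3 above all other mESC libraries, the highest of which was at 14.5. That split was not counted over all genes either.

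Gabarapl2 varied widely in mESC, from 17.5 to 101 CPM, and its KO libraries were at 17.5 and 62.5 and its Q111 libraries at 25.7 and 50.8. Tfeb in mESC was at 7.70 and 42.7 CPM in WT and 9.53 and 43.5 in KO, with replicate 2 far above replicate 1 in both.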
